A study of Drosophila melanogaster with 2 samples.

Results

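The transcription factors that set up the somatic (body wall) muscles of the Drosophila embryo were examined for binding of tx, a basic helix-loop-helix (bHLH) protein known from tendon cells, to which the muscles attach. The 10 genes, of 13945 protein-coding genes on 6 chromosome arms, were listed by name. They were divided into 3 pan-muscle factors (Mef2, twi and lmd) and 7 identity factors (nau, org-1, Poxm, slou, ap, lbe and tup). The embryos belonged to a transgenic line that stably expresses tx with a GFP tag at its C-terminus. Chromatin came from whole embryos aged 0 to 24 h, males and females together, and was precipitated with an antibody against GFP in 2 biological replicates of this 1 group. All stages and tissues were therefore mixed, and strong binding in few cells cannot be told apart from weak binding in many. No untagged or untreated group was analysed here, and the labels name 1 control experiment for both replicates.

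Somatic muscle founders arise from mesoderm patterned by twi, and each founder expresses a combination of identity factors that gives its muscle its position, shape and attachment. Pan-muscle factors act more widely: Mef2 drives the differentiation genes of all muscles, and lmd acts in the fusion-competent myoblasts that founders recruit. Tendon cells of the epidermis form at the ends of these muscles, and tendon and muscle signal to each other as they mature.

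A peak's summit was placed by its position in the gene body and 10 kb either side (the window). The strict list was the authors' optimal set by the irreproducible discovery rate (IDR), a measure of how reproducible the ranks of peaks are. Its peaks were the strongest of the pooled list, and not each of them had a summit in both replicates. It held 3102 peaks, or 2.32 summits per 100 kb. Relaxed lists held 30000 peaks each for replicate 1, replicate 2 and the pooled replicates and include background by design. Rank 1 is the strongest peak of a list by the authors' signal. Read depth is unknown, and signals are compared only within a list.

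Of the 10 factors, 6 had an optimal IDR summit in the window, against 54.3% of all protein-coding genes and 62.8% of the 3300 genes whose windows were within the members' range of length. The windows of the 10 held 14 summits over 398 kb, where length alone predicts 9.22. They were unevenly spread: Mef2 held 6, org-1, Poxm and tup held 2 each, lmd and nau held 1 each, and twi, slou, ap and lbe held 0. Without Mef2 the other 9 windows held 8 summits where length predicts 7.71. Both predictions use the density over whole arms, which is not that of windows around genes. Counted by window, the 3300 genes above had 4195 pairs of a gene and a summit, a shared summit counting for each gene. On that scale the 14 summits of the 10 windows were near the background. At the promoter, taken as 1000 bp either side of a factor's own transcription start site (TSS), 2 of the 10 had such a summit, org-1 and Poxm, against 18.9% of all genes. These shares were near the background, and no test was made over a list chosen by name.

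**Figure D1:**
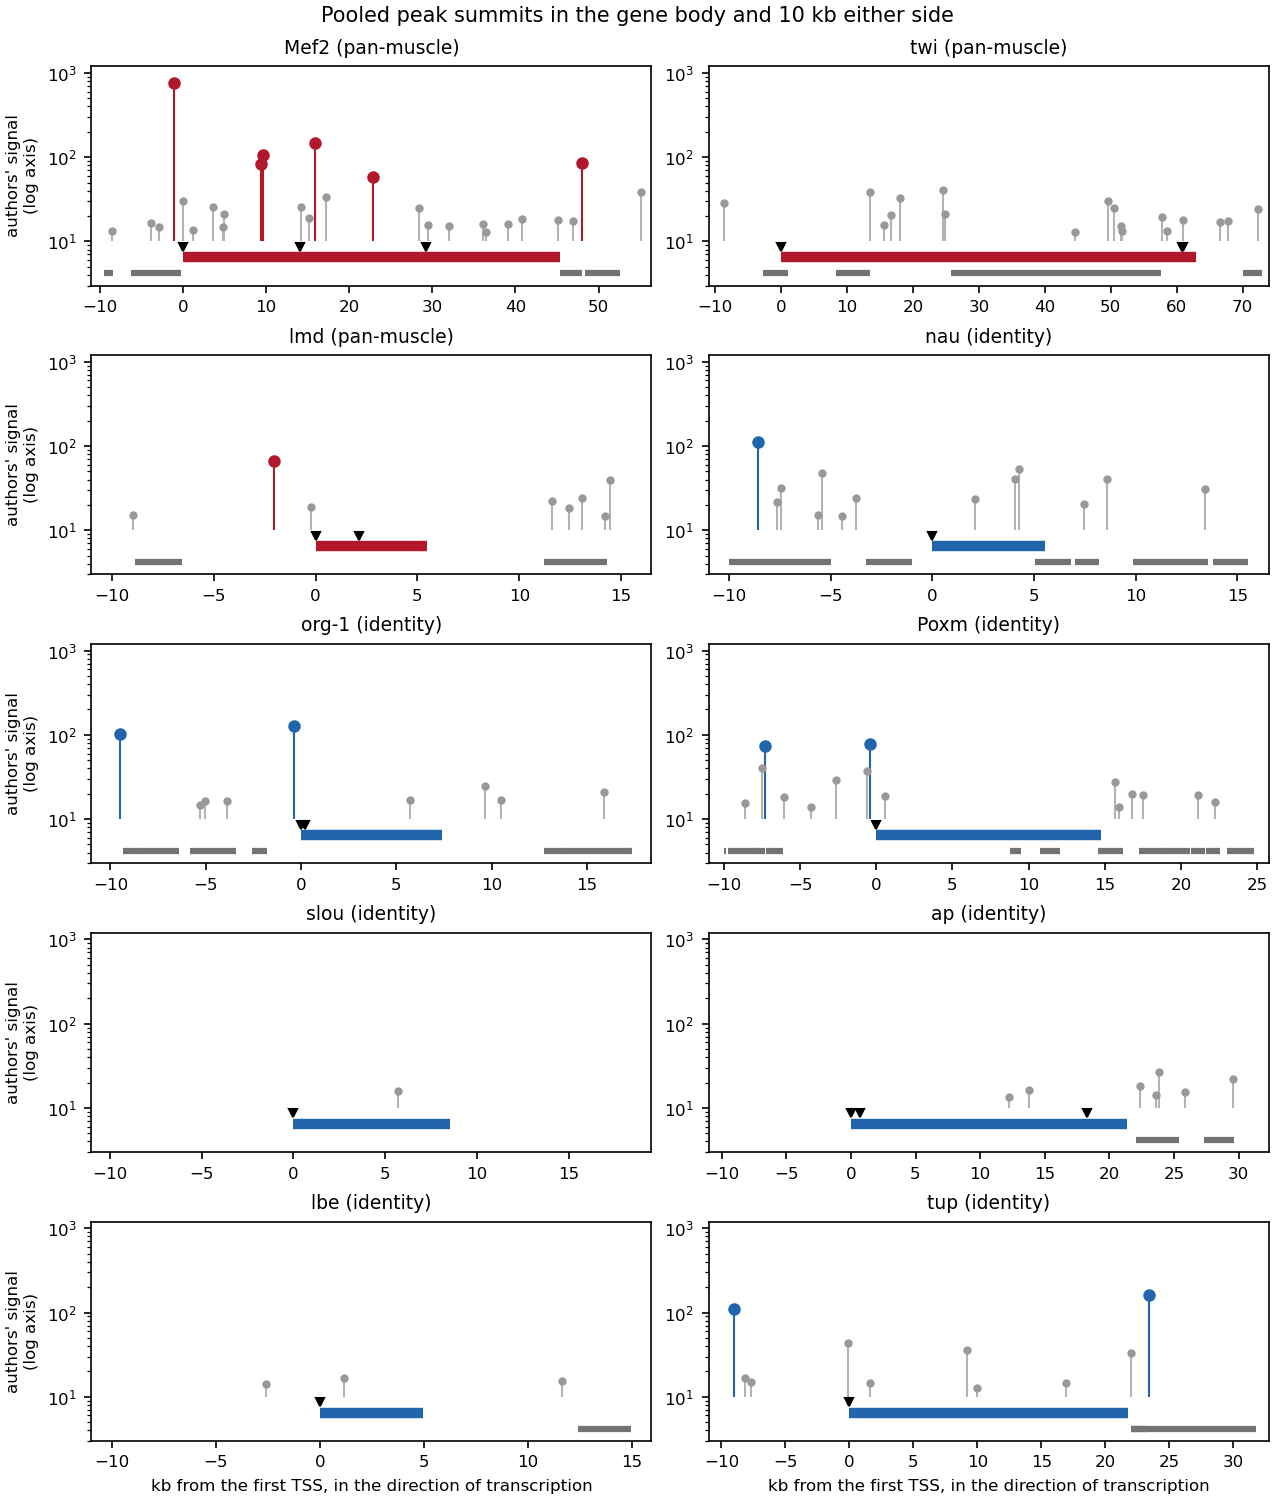
Each panel shows 1 factor's window: the x axis is the distance in kb from its first TSS in the direction of transcription, and the y axis is the authors' signal (log axis) of each summit of the pooled list. Large coloured points are optimal IDR summits (red pan-muscle, blue identity), small grey points are weaker pooled summits, the coloured bar is the gene, black triangles are its TSSs and grey bars are other protein-coding genes. Mef2 has 6 coloured points, whereas twi, slou, ap and lbe have 0.

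The sequences at 5 of the summits, 1 for each factor other than Mef2 that had any, are shown because bHLH proteins as a class bind the E-box, CANNTG. Where a factor had more than 1 summit, the one nearer to its own TSS is shown, which at tup is the weaker (rank 1114 against 556). Within 50 bp the summits not shown held 3 matches to CANNTG at Poxm and 0 at org-1 and tup. Each line gives 50 bp either side of an optimal IDR summit, on dm6 and the minus strand, which is the coding strand of each of these genes. Capitals mark CANNTG. The lmd and tup sites were intergenic, the nau site was in an intron of its neighbour CG10365, and those of org-1 and Poxm were upstream of their TSSs.
lmd, chr3R:23028687-23028787: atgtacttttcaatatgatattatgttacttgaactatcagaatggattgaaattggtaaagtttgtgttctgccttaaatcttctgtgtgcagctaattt
nau, chr3R:23726893-23726993: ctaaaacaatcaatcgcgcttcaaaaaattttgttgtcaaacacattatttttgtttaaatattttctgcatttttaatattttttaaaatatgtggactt
org-1, chrX:8455378-8455478: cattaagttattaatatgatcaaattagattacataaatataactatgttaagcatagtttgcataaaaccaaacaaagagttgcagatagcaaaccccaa
Poxm, chr3R:8334120-8334220: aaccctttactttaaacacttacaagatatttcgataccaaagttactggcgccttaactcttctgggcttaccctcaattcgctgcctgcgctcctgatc
tup, chr2L:18890245-18890345: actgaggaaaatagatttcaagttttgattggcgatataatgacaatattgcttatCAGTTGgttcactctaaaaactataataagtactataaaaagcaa

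The tup site held CAGTTG, with its middle 8 bp from the summit, and the other 4 windows held no CANNTG within 50 bp. Measured to its middle, the nearest lay 50 bp from the summit at org-1 (and so ran past the window), 158 bp at nau, 227 bp at lmd and 271 bp at Poxm. The nau, org-1, tup and lmd windows were AT-rich, with GC contents of 21.8%, 26.7%, 27.7% and 29.7%, and the Poxm window had 44.6%. Over all 14 summits CANNTG (read on both strands, on which it is the same pattern) stood within 50 bp of 5, or 35.7%, against 38.0% of all optimal IDR summits. The median distance to it was 79 bp for the 14 and 69 bp for all. CATATG stood at 0 of the 14 and at 3.90% of all, and CAGCTG, a form bound by MyoD in mammals, at 1 of the 14 and at 4.90% of all. Both are forms of CANNTG and are counted in it. The DREF element TATCGATA stood at 0 of the 14 and at 2.64% of all.

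Mef2, the MADS-box factor of muscle differentiation (FBgn0011656, arm 2R from 9913496 to 9958858, minus strand), carried the most summits. Its 6 in a window of 65.4 kb compare with 1.51 predicted by length, and 0.760% of all genes (106) had as many or more. That share is not matched for length, as the median window of all genes was 22.2 kb. The strongest, from 9959685 to 9960135, had a signal of 760.4 and rank 16 in the optimal set, rank 19 in replicate 1 and rank 14 in replicate 2. It lay 1040 bp upstream of the first Mef2 TSS, but 166 bp upstream of the TSS of Pdrg1, a gene that starts between Mef2 and the summit. A TSS of Pal1 was also within 1000 bp, and the summit was inside the body of Pal1. This peak therefore cannot be assigned to Mef2 by position.

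The other 4 summits nearest to Mef2 lay inside the gene. The summit of rank 664 (signal 146) was in a 5′ UTR exon, 1780 bp downstream of the second Mef2 TSS. Summits of rank 1198 (signal 107) and 1852 (signal 81.9) lay in an intron, 4454 and 4662 bp upstream of that TSS, and their peak intervals overlap. The summit of rank 3093 (signal 58.6) was in an intron 6337 bp upstream of the third TSS, near the bottom of the optimal set. A further summit, of rank 1740 (signal 85.5), stood 78 bp upstream of Etf-QO, an enzyme of mitochondrial electron transfer, beyond the end of Mef2 farthest from its first TSS. At the Mef2 TSSs themselves only weak summits were listed: the strongest of 4 in the pooled list ranked 7901 (signal 29.8), 26 bp downstream of the first TSS, and ranked 6249 in replicate 1 and 11499 in replicate 2.

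The gene twi encodes the bHLH factor that specifies mesoderm (FBgn0003900, 2R from 22985374 to 23048325). Its window of 83.0 kb was the longest and held 0 optimal IDR summits, where length predicts 1.92. The strongest pooled summit had rank 5098 (signal 41.0), 24565 bp downstream of the first annotated TSS, in an intron of a long transcript. At that site replicate 1 ranked 15160 (signal 15.1) and replicate 2 ranked 2695 (signal 18.7), so the replicates differed at it. Near the 2 downstream TSSs the single pooled summit, 79 bp upstream, ranked 18289 and had no replicate 2 summit within 100 bp.

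**Figure D2:**
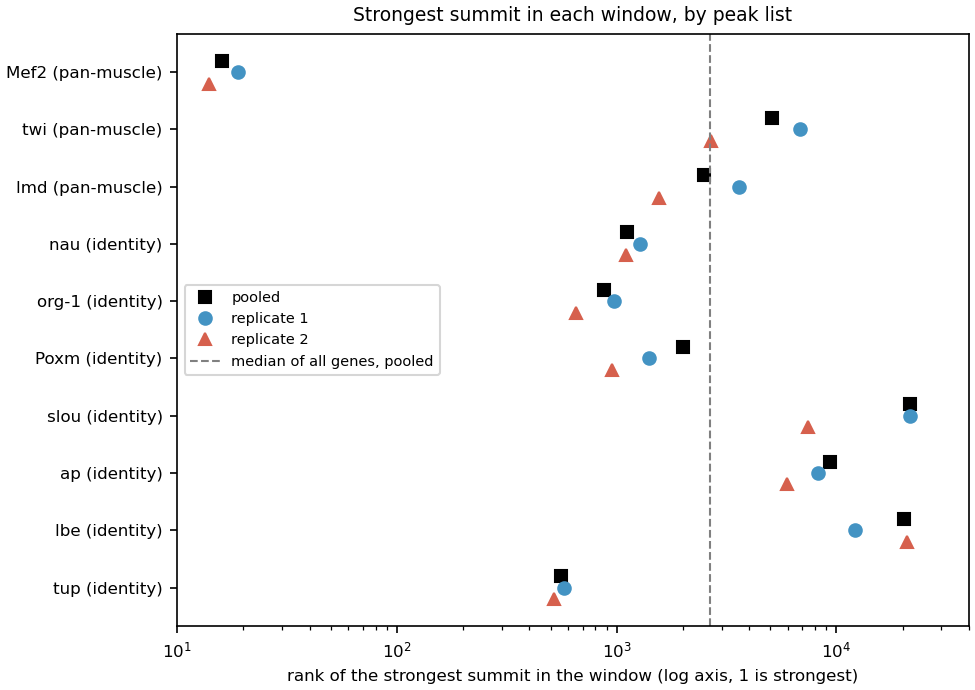
The x axis gives the rank (log axis, 1 is strongest) of the strongest summit in each factor's window, for the pooled list (squares), replicate 1 (circles) and replicate 2 (triangles). The dashed line is the median over all protein-coding genes in the pooled list, 2661. Mef2, lmd, nau, org-1, Poxm and tup sit left of it in the pooled list, and twi, slou, ap and lbe sit right of it.

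The zinc finger gene lmd (FBgn0039039, 3R from 23021222 to 23026713) had 1 optimal IDR summit, the intergenic one shown above, with rank 2505 and a signal of 67.3. It lay 2024 bp upstream of the nearest lmd TSS, and no other gene had a closer TSS. The replicates ranked it 3594 (signal 39.4) and 1550 (signal 27.0), so it stood below the top 3102 peaks of replicate 1. A pooled summit 201 bp upstream of lmd ranked 16604 and had no replicate 2 summit within 100 bp.

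Among the identity factors, nau, the fly homologue of the vertebrate MyoD family (FBgn0002922, 3R from 23712814 to 23718357), had 1 optimal IDR summit in its window. It had rank 1119 (signal 110.5) and ranks of 1273 and 1097 in replicates 1 and 2, close to each other. It lay 8586 bp upstream of nau and 1439 bp upstream of the nearest TSS of CG10365, in an intron of that gene. Inside nau a weaker site was listed in an intron, 4273 bp downstream of the TSS, with pooled rank 3573 (signal 52.8) and ranks of 3786 and 2727 in the replicates. The relaxed lists were dense here: 13 pooled summits, or 5.09 per 10 kb, more than 81.8% of genes. Replicate 1 had 13, also 5.09 per 10 kb and more than 78.6% of genes, and replicate 2 had 15, or 5.87 per 10 kb and more than 98.3% of genes. In replicate 1 the density at Poxm was higher, at 5.46.

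The T-box gene org-1 (FBgn0021767, X from 8447691 to 8455069), a fly relative of Tbx1, had the strongest summit at a member's own promoter. It lay 359 bp upstream of the TSS with rank 871 and a signal of 127, and ranked 972 in replicate 1 (signal 86.1) and 650 in replicate 2 (signal 45.0). No other protein-coding TSS was within 1000 bp. The second summit in its window, of rank 1262 (signal 103), lay 124 bp upstream of Sptr, the sepiapterin reductase gene, and 9493 bp from org-1, with replicate ranks of 1409 and 1083.

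Poxm, a paired-domain gene (FBgn0003129, 3R from 8319025 to 8333792), was the other member with a promoter summit, 378 bp upstream of its single TSS. That summit had rank 2002 and a signal of 78.1, and the replicates were apart, with rank 3566 in replicate 1 (signal 39.6) and 956 in replicate 2 (signal 36.5). A weaker summit 615 bp upstream had pooled rank 5707. The second optimal IDR summit of the window, of rank 2129 (signal 74.7), lay 0 bp from the TSS of Arl2, a small GTPase gene, and within 1000 bp of that of COX7A. It ranked 1404 in replicate 1 (signal 70.0), but replicate 2 had no summit nearer than 1259 bp. This was the one summit of the 14 not found in both replicates, and it held 3 matches to CANNTG within 50 bp, among them the 1 CAGCTG of the 14 summits.

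The LIM-homeodomain gene tup (FBgn0003896, 2L from 18859507 to 18881261), the fly Islet gene, had 2 optimal IDR summits, on opposite sides of the gene. The stronger, of rank 556 (signal 159; 576 and 519 in the replicates), was 176 bp upstream of the nearest TSS of CG10602, 1652 bp past the end of tup. The other, of rank 1114 (signal 111; 1238 and 1020 in the replicates), was intergenic, 9034 bp upstream of tup, whose TSS was the nearest, and is the site with CAGTTG. At the tup TSS a pooled summit 149 bp upstream ranked 4642 (signal 43.8). It ranked 3604 in replicate 1 and 14604 in replicate 2, outside the top 3102 of each.

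The homeodomain genes slou (FBgn0002941, 3R from 21548661 to 21557182) and lbe (FBgn0011278, 3R from 21441577 to 21446537) had few pooled summits. The slou window of 28.5 kb held 1 pooled summit (rank 21501, signal 16.1), 3 in replicate 1 (strongest at rank 21520) and 2 in replicate 2 (strongest at rank 7406). The lbe window, the shortest of the 10, held 3 pooled summits, the best of rank 20276 (signal 16.7), 4 in replicate 1 (best rank 12153) and 1 in replicate 2 (rank 20840). In neither window was a pooled summit found in both replicates within 100 bp. A share of 6.39% of genes had fewer pooled summits per 10 kb than slou, and 17.9% had fewer than lbe. In replicate 1 these shares were 19.9% and 26.3%, and in replicate 2 they were 4.12% and 2.00%.

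The LIM-homeodomain gene ap (FBgn0267978, 2R from 5706202 to 5727525), of the lateral transverse muscles, held 7 pooled summits in 41.3 kb, the best of rank 9336 (signal 26.8) in a coding exon of its neighbour vlc. Its best ranks were 8252 in replicate 1 and 5952 in replicate 2, at different positions. The slou, lbe and ap windows were touched by 0, 1 and 2 other protein-coding genes. Of the windows with optimal IDR summits, those of lmd and tup were touched by 2 and 3, those of Mef2 and nau by 6 each, that of org-1 by 7 and that of Poxm by 12, while that of twi, with 0 summits, was touched by 7. Whether gene density had a part in these counts was not tested.

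**Figure D3:**
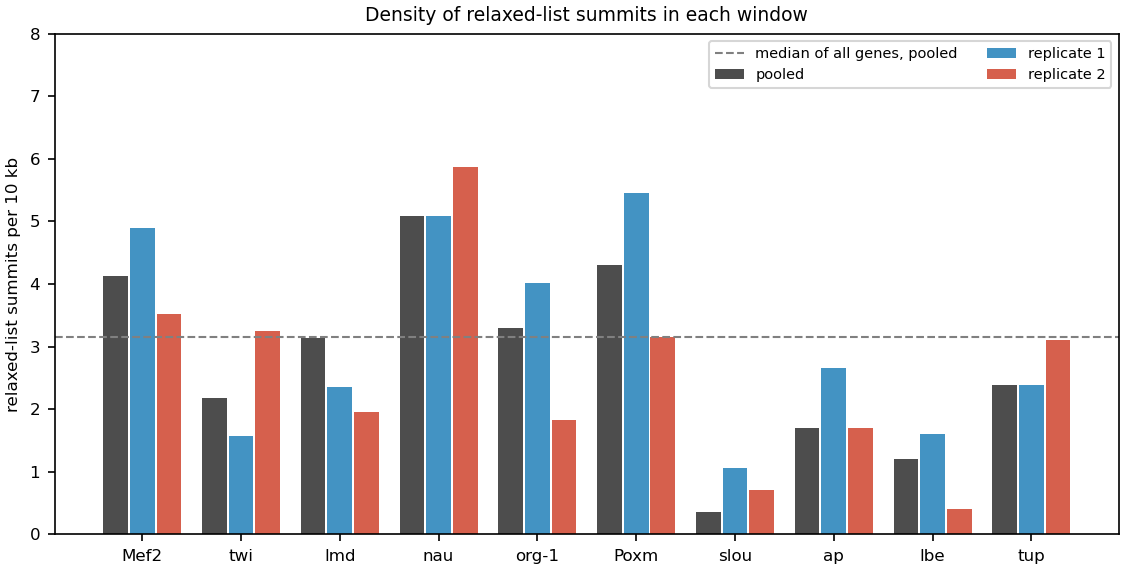
Bars give the number of relaxed-list summits per 10 kb of window (y axis) for each factor (x axis), in the pooled list, replicate 1 and replicate 2. The dashed line is the median over all protein-coding genes in the pooled list, 3.16 per 10 kb. The values of slou and lbe are the lowest of the 10 in the pooled list, 0.351 and 1.20, and nau is the highest at 5.09.

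Pan-muscle and identity factors were then set side by side. An optimal IDR summit stood in the window of 2 of 3 pan-muscle factors and of 4 of 7 identity factors. The pan-muscle windows held 7 summits in 174 kb, 4.03 per 100 kb, and the identity windows 7 in 224 kb, 3.12 per 100 kb, where length predicts 4.03 and 5.20. The higher density of the pan-muscle windows came from Mef2: twi and lmd together held 1 summit in 108 kb, 0.922 per 100 kb. The median of the best pooled ranks was 2505 for pan-muscle factors (16 to 5098) and 2002 for identity factors (556 to 21501), and the ranges overlap.

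The positions of the summits were counted for each class, but gene bodies filled unlike parts of the windows. The body of Mef2 was 45.4 kb long, that of twi was longer and that of lmd was 5.49 kb. Those of the identity factors were 4.96 to 21.8 kb, and each window added 10 kb either side. No share over all genes was set beside the counts in gene bodies, so these counts are not read as a difference between classes. Of the 7 pan-muscle summits 4 were in the body of their own gene, all of them in Mef2, 5 had a pan-muscle TSS as the nearest and 2 were within 1000 bp of any TSS. Of the 7 identity summits 0 were in the body of their own gene, 3 had the identity factor's TSS as the nearest and 5 were within 1000 bp of any TSS, 2 of them at the factor's own. In all, 7 of the 14 lay within 1000 bp of a TSS, against 64.9% of all optimal IDR summits, and for 5 of these 7 the TSS was only a neighbour's. The member had the nearest TSS for 8 of the 14 summits (57.1%), compared with 21.6% of all pairs of a gene and a summit in its window and 34.3% of such pairs for genes with windows of the members' range of length. By that assignment 5 of the 10 were nearest to a summit, against 16.9% of all genes and 29.8% of those with windows of that range. Genes far from their neighbours can take more summits under this assignment. With 3 and 7 genes, of which 1 holds most of a class's summits, none of these differences was tested.

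The optimal IDR set was thresholded by a measure of reproducibility from these same replicates and was the top 3102 peaks of their pooled list. The match between the replicates at the 14 sites is therefore a description. Both had a summit within 100 bp at 13 of the 14, against 91.0% of all optimal IDR summits, and within 50 bp at 9 of the 14. The ranks in the 2 replicates differed by a median of 1.30-fold at these 13 and by 1.57-fold over all, and by more than 2-fold at 3 of the 13, which were the Mef2 summit of rank 664 (482 against 2019, or 4.19-fold) and those of lmd and Poxm. Replicate 1 gave the better rank at 4 sites, which were the 4 inside Mef2, and replicate 2 at 9. Taking the top 3102 peaks of replicate 1 alone, 5 of the 10 windows held a summit, against 53.9% of all genes, with lmd at 0. Taking those of replicate 2 alone, 7 did, against 53.8%, with twi at 1.

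**Figure D4:**
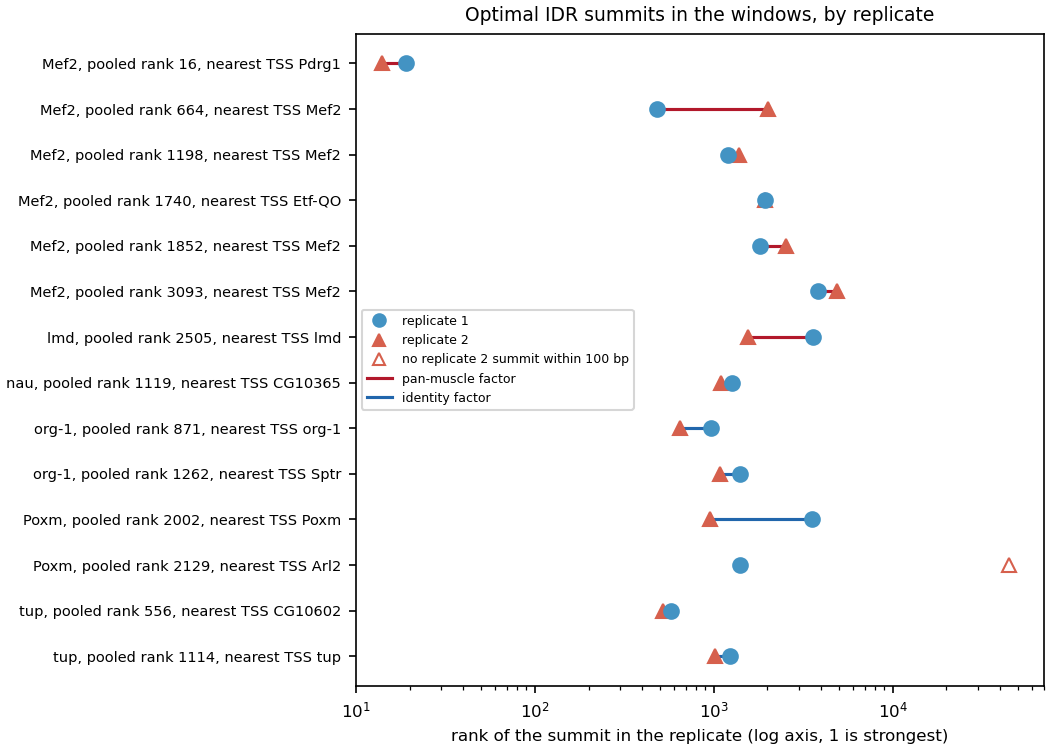
Each line is 1 of the 14 optimal IDR summits, named by the window it lies in, its pooled rank and the gene with the nearest TSS. The x axis gives its rank in replicate 1 (circles) and replicate 2 (triangles) on a log axis, and the line joining them is red for pan-muscle and blue for identity factors. The open triangle is the summit at Arl2, which has no replicate 2 summit within 100 bp and is drawn past the last rank.

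Below the optimal set the 10 windows held 97 pooled summits, of which 28 (28.9%) had a summit in both replicates, against 19.1% of all such weaker summits. The latter share is over all positions, not windows around genes of like length, and the difference was not tested. The 28 included 8 at twi, 6 at nau, 5 at Mef2 and 4 at Poxm, and 0 at org-1, slou and lbe. At the factors' own TSSs a pooled summit of any rank lay within 1000 bp for 6 of the 10 (Mef2, twi, lmd, org-1, Poxm and tup), against 62.9% of all genes. In 4 of these, Mef2, org-1, Poxm and tup, a summit there was in both replicates. No share over all genes was counted for this, so it is not read as a result about the factors.

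Other regulators of muscle, mesoderm and tendon were counted in the same way, with a summit or stretch shared by windows of the same list counted for each gene. Of 14 other muscle identity factors 0 had an optimal IDR summit within 1000 bp of a TSS, against 18.9% of all genes, and 5 had one in the window, against 54.3%: kn, vg, ab, Six4 and jumu, which held 3. Their windows held 8 summits where length predicts 11.7. Of 10 cardiac and visceral mesoderm factors 0 had a promoter summit and 7 had one in the window. Among them were Doc1, Doc2 and Doc3, all on arm 3L, with 1, 3 and 2 summits, and Hand with 2. The windows of this list held 11 summits where length predicts 5.96. Of 7 cofactors and repressors of the muscle bHLH and mesoderm programme 2 had a promoter summit, da, the general bHLH partner of twi (rank 1737, 78 bp upstream), and emc, an inhibitor of bHLH dimers (rank 3024, 73 bp downstream). The replicates ranked the da summit 1954 and 1604, whereas the emc summit ranked 2741 in replicate 1 and had none in replicate 2. For these 7 genes 5 had a summit in the window, and the windows held 11 where length predicts 4.59. The 3 tendon factors were sr, how and tx itself, the tagged protein. All 3 had a summit in the window, 5 summits in all where length predicts 3.48. Of these, 2 were in the window of tx, 2 in that of how and 1 in that of sr. Only 1 had a promoter summit, the RNA-binding protein how, 394 bp upstream with rank 112 and replicate ranks of 102 and 137. Within 1000 bp of a TSS, this rank was ahead of those of org-1 (871) and Poxm (2002). Within 2000 bp 3 of the 10 factors had a summit, the added one being Mef2. No share over all genes was counted at that distance, so this count is not read as a result. The Mef2 summits there were that of rank 664, 1780 bp from a Mef2 TSS, and that of rank 16, 1040 bp from one. The summit of rank 16 was ahead of that of how, but lay nearer to Pdrg1 and cannot be assigned to Mef2 by position. These lists had medians of 0, 1, 2 and 2 summits per window, against 1 for the 10 factors and 1 for all genes. Their median windows were 33.7, 23.7, 24.1 and 57.1 kb, against 22.2 kb for all genes. The predictions by length use the density over whole arms, which is not that of windows around genes. Counted by window, all 13945 genes had 13898 pairs of a gene and a summit. Counts above a prediction by length are therefore not read as an excess.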

How the data were processed

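Binding of GFP-tagged tx was measured by ChIP-seq in 2 biological replicates of whole embryos, sheared to 200 to 800 bp per the labels' protocols. The peak lists on dm6 were used as deposited by the authors. They give the authors' signal for each peak and the offset of its summit from its start. The sources used here name no aligner or peak caller and give no read depth. The optimal IDR set was the top 3102 peaks of the pooled list, so these lists are not independent. Lists on the older build dm3 were not used here.

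Genes and TSSs of protein-coding transcripts came from the Ensembl BDGP6 annotation, and sequence from RefSeq's Release 6 assembly, in which all 10 genes have the same positions. Summits were ranked by signal and assigned to windows (gene body and 10 kb either side), promoters (within 1000 bp of a TSS) and the nearest TSS. A replicate summit within 100 bp counted as the same site, and motifs were read within 50 bp. The number of summits predicted by length is the window's length times the genome-wide density. Python 3.11.15 was used, and the assignment was tested on simulated data with 200 planted summits, all recovered. All 10 factors were named, and of the other lists the genes with promoter summits and some with window summits, the latter chosen after their values were seen. The 10 factors and the other lists were chosen with earlier results of these data known. Genes are not replicates and there was 1 group, so no test was made. Alternatives covered the peak threshold, replicates, window, promoter distance, summit matching, motif window and the division into classes.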

Additional observations from a re-analysis of the deposited data

How the results depend on the processing

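The main values were 6 of 10 factors with an optimal IDR summit in the window (2 pan-muscle, 4 identity), 14 summits, 2 factors with a promoter summit, 13 sites in both replicates and 5 summits with CANNTG. Taking only the strongest 1551 peaks gave 8 summits, 1 pan-muscle factor and 1 promoter, and the top 6204 of the pooled list gave 26 summits. With 1 replicate left out in turn, the ranges were 5 to 7 factors, 13 to 14 summits, 1 to 3 pan-muscle and 4 to 4 identity factors, and 1 to 2 promoters. A window of 1 kb gave 3 factors, 6 summits, 1 pan-muscle and 2 identity factors. The nearest TSS at any distance gave 9 summits, against 8 when limited to the windows. Taking Mef2 alone, or Mef2 and twi, as pan-muscle left 1 such factor with a summit. CANNTG within 25 bp was at 2 summits. Chosen after seeing the data, leaving out Mef2 gave 8 summits and 1 pan-muscle factor, and counting overlapping peaks once gave 13 summits. No paired analysis was possible because there was 1 group.

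Read depth is unknown, so a window with no summit shows only that none was listed at these thresholds. Signals carry no error of their own, and with 2 replicates the spread at a single site is known only roughly.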
